A study of Sus scrofa with 10 samples.

Results

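KLB, RPL9, ACY1 and RPL29, 4 genes that lie in pairs on opposite strands of the pig genome (KLB with RPL9 and ACY1 with RPL29), were examined in longissimus lumborum muscle of Alentejano (AL) and Bísaro (BI) pigs. KLB had been picked by the study for its difference between these pigs, ACY1 was taken up with results of the same pigs known, and the ribosomal protein genes were chosen by position. Of the 4 genes, 3 were paired with a row of the deposited table of 25880 genes. RPL9 was not paired with an identifier there and was not analysed here, so the KLB pair is described by its gene models and by KLB alone.

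The muscle was sampled at slaughter from 5 AL and 5 BI castrated males reared free-range on commercial feed and slaughtered at about 150 kg, with no further treatment and no age in the labels. The AL and BI are local Portuguese breeds. Stranded paired-end mRNA libraries were made, 1 per pig, so that p-values measure the spread between these pigs. Values are normalised read counts, that is, gene counts divided by a size factor for each pig.

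Reads counted on genes ranged from 2298045 to 3027364 in AL and from 2461652 to 3343194 in BI. In muscle as a whole tissue, fewer cells of a type and less RNA per cell cannot be told apart. The skeletal muscle markers ACTA1, TNNT3 and CKM had mean normalised counts of 12497, 10732 and 4184. AL44 stood apart, with a sum of 16482 over the 7 muscle markers that were paired against 23085 to 47483 in the other 9 pigs, so results that rest on it are given without it too. The highest summed level of the endothelial, blood, satellite cell, nerve or hepatocyte markers in any pig was 16.7, fibroblast markers summed to at most 112 and leukocyte markers to at most 397. Most of the leukocyte sum came from CSF1R, with a mean of 276, while PTPRC had a mean of 0.316.

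KLB encodes β-klotho, a membrane protein that pairs with fibroblast growth factor (FGF) receptors so that the endocrine factors FGF19 and FGF21 can act on a cell. It is best known from liver and adipose tissue. ACY1 encodes aminoacylase 1, a cytosolic zinc enzyme that takes the acetyl group off N-acetylated amino acids and is best known from kidney and liver. RPL9 and RPL29 encode proteins of the large ribosomal subunit, which every cell builds in quantity.

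In the RefSeq annotation of Sscrofa11.1, KLB lies on the plus strand at chr8:30653434-30696123 and RPL9 on the minus strand at chr8:30693198-30699189. Their spans overlap by 2926 bases, and their exons by 133 bases, which is 8.39% of the exon bases of RPL9. The shared exon bases run from 30695642 to 30695774, all of them coding in RPL9 and none of them coding in KLB. Only the KLB transcript that ends at 30696123 reaches RPL9, since the other ends at 30691355, leaving 1842 bases between it and RPL9. ACY1 lies on the plus strand at chr13:34114119-34119684 and RPL29 on the minus strand at chr13:34119541-34121842. The 144 bases that these genes share are exonic in both and make up 21.3% of the exon bases of RPL29, of which 31 are coding in RPL29 and none in ACY1. One ACY1 transcript ends at 34118889, which leaves 651 bases between it and RPL29. Both pairs therefore meet at their 3′ ends.

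The ends of the coding sequences are given below, and only the RPL29 stretch lies in an exon of the opposite gene. They were taken from the Sscrofa11.1 reference with the RefSeq gene models, are written 5′ to 3′ on the strand of the gene, and carry the stop codon in capitals. The KLB end is that of the transcript reaching RPL9 (chr8:30695592-30695620), and the RPL9 stretch is the last coding exon, inside an intron of that transcript (chr8:30694396-30694502). The ACY1 stretch is the coding part of the last exon (chr13:34118665-34118829). The RPL29 stretch holds the last 30 coding bases, and 30 of 30 lie within the exon of the longer ACY1 transcript (chr13:34119654-34119683).
KLB: ctaacccaaacaccagctttcacaagTAG
RPL9: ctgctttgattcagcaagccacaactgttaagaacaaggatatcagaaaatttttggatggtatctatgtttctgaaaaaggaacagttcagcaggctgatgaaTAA
ACY1: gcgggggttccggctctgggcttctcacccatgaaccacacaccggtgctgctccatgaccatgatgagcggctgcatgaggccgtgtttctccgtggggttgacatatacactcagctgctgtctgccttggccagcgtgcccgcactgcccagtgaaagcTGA
RPL29: gcccaggcccccacaaaagctccacaaTAG

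**Figure D1:**
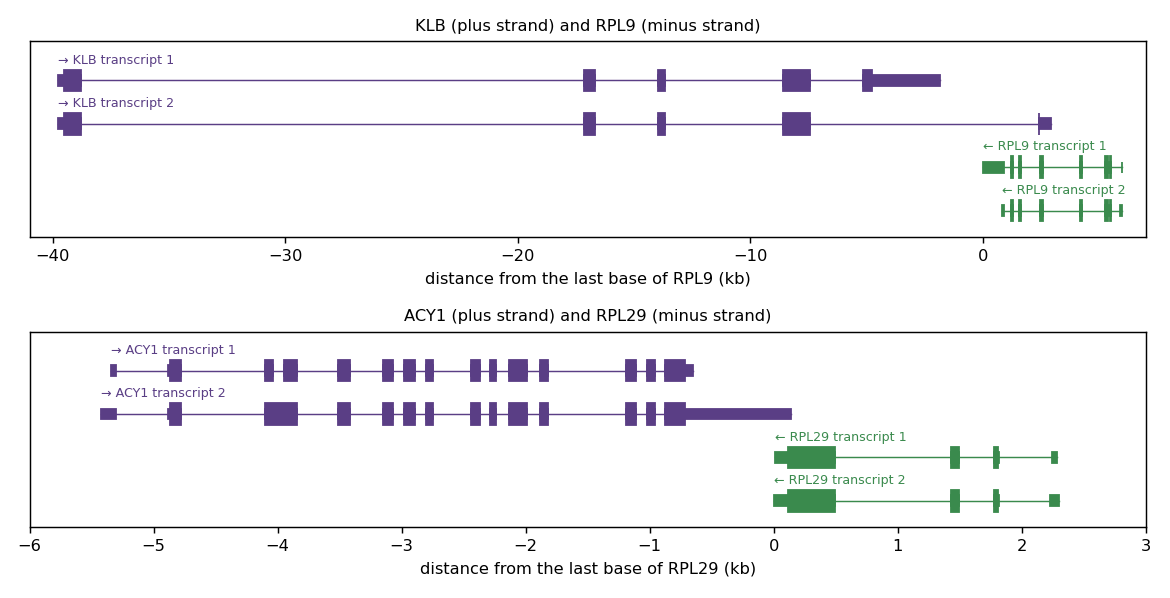
Gene models of KLB with RPL9 (upper panel) and ACY1 with RPL29 (lower panel), with distance in kb from the last base of the ribosomal protein gene on the horizontal axis. Tall boxes are coding parts of exons, low boxes untranslated parts and lines introns. In each pair only 1 transcript of the plus-strand gene runs past 0, sharing 133 exon bases with RPL9 and 144 with RPL29.

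The libraries were described as stranded, but the strand setting used for counting is not given in the sources used here, and the part that reads of the opposite gene play in any count was not tested.

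KLB (ENSSSCG00000026297) was higher in AL than in BI muscle. In AL its normalised count was 123.7 in AL44, 136.6 in AL46, 128.4 in AL49, 138.8 in AL52 and 133.5 in AL63. In BI it was 63.4 in BI25, 95.8 in BI34, 81.0 in BI36, 86.2 in BI37 and 61.3 in BI42. The lowest AL pig lay above the highest BI pig, an arrangement found in 11 of the 1513 genes tested (0.727%), and in another 11 with the breeds exchanged. The means were 132 ± 6.16 in AL and 77.5 ± 14.9 in BI (SD, n = 5 each), 1.70-fold apart. The log2 fold change was 0.78 (SE 0.16, 95% interval 0.43 to 1.14) on the log2(normalised count + 1) scale, given as a description since KLB had been chosen for this contrast. Leaving out 1 pig at a time gave 0.70 to 0.86, and without AL44 it was 0.81. The study also reported KLB as higher in AL, with a larger log2 fold change that lay above the interval given here. The reason for the gap was not tested.

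The AL pigs were close to each other in KLB. Their coefficient of variation was 4.66%, below the 8.67% that counting error alone gives at 118 to 156 reads per pig. In BI it was 19.2% against 11.2% from counting, at 58 to 94 reads. BI25 and BI42 were the low pigs of the BI group, whereas BI34 came nearest to AL.

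Adipocyte markers were examined beside KLB because adipose tissue is a known site of its expression. Of 12 markers 11 were paired, and their summed normalised count was 124 to 232 in AL (median 148) and 119 to 270 in BI (median 154). The sums of the breeds overlapped, and most of their reads came from PLIN4 (462 in AL and 438 in BI) and PNPLA2 (176 and 223), a lipid droplet protein and a lipase. The other markers had fewer reads, with LIPE at 67 in AL and 77 in BI, CIDEC at 40 and 78, FASN at 40 and 24, PLIN1 at 14 and 7, and FABP4 at 6 and 9. ADIPOQ had 2 and 1, SCD 2 and 1, and LEP 0 and 1, while DGAT2 was at 0 in each pig. Because the sums rest largely on PLIN4 and PNPLA2, they do not measure the fat in a sample. The study reported more intramuscular fat in AL than in BI, and higher ADIPOQ in AL by qPCR. The part of fat or of these markers in the KLB difference was not tested.

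ACY1 (ENSSSCG00000023325) did not separate the breeds. In AL its normalised count was 8594 in AL44, 13291 in AL46, 9391 in AL49, 10465 in AL52 and 11595 in AL63. In BI it was 10536 in BI25, 10551 in BI34, 12141 in BI36, 8755 in BI37 and 10631 in BI42. AL held both the lowest pig, AL44, and the highest, AL46, and the BI values lay between them. The means were 10667 ± 1852 in AL and 10523 ± 1200 in BI (SD, n = 5 each). The log2 fold change was 0.01 (SE 0.14, 95% interval -0.30 to 0.32), a description without a test, and -0.07 to 0.08 when 1 pig at a time was left out. With 8705 to 14298 reads per pig, counting error gave a coefficient of variation of under 1% (0.965% in AL, 0.958% in BI), against 17.4% between AL pigs and 11.4% between BI pigs.

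RPL29 (ENSSSCG00000027573), across from ACY1, did not separate the breeds either. In AL its normalised count was 54.8 in AL44, 136.6 in AL46, 79.8 in AL49, 74.7 in AL52 and 83.7 in AL63. In BI it was 79.1 in BI25, 74.9 in BI34, 97.4 in BI36, 73.2 in BI37 and 104.6 in BI42. As for ACY1, AL44 was the lowest pig and AL46 the highest, with all BI pigs in between. The means were 85.9 ± 30.5 in AL and 85.8 ± 14.2 in BI (SD, n = 5 each). The log2 fold change was -0.05 (SE 0.23, 95% interval -0.54 to 0.45), with an adjusted p of 0.964 in limma. The exact permutation test (two-sided, 252 divisions of the pigs) gave p = 0.889, where 0.00794 is the smallest p this design allows. Without AL44 the log2 fold change was 0.10 (limma, adjusted p = 0.848). The interval leaves room for a difference of up to 0.54 on the log2 scale. The coefficient of variation was 35.5% in AL and 16.6% in BI, against 10.7% and 10.6% from counting.

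**Figure D2:**
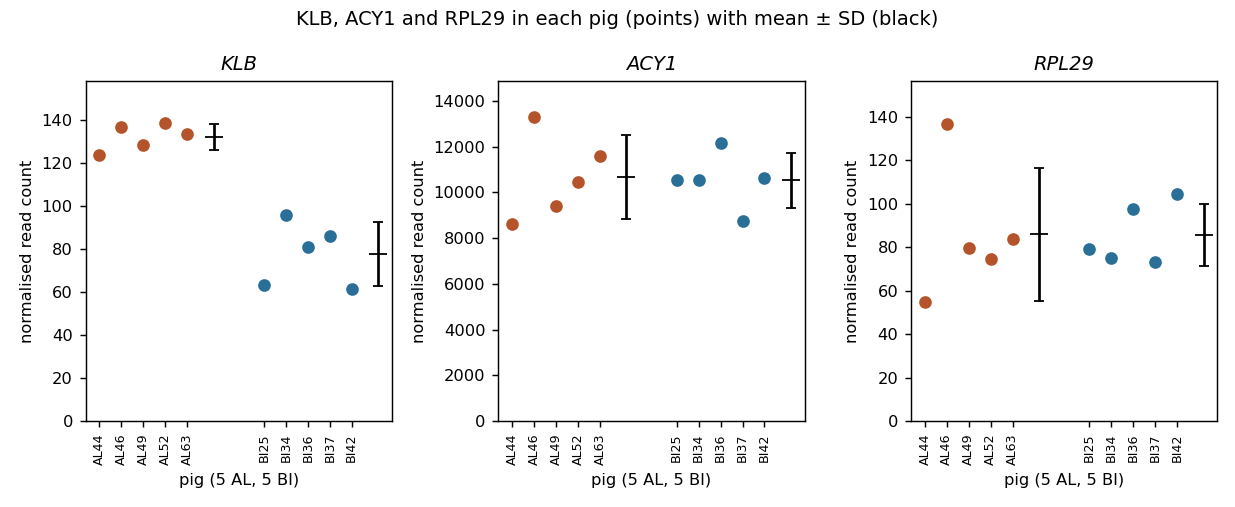
Normalised read count (vertical axis, from 0) of KLB, ACY1 and RPL29 in each AL pig (orange) and BI pig (blue), with the mean ± SD of each breed in black (n = 5). The AL pigs lie above all BI pigs in KLB, whereas in ACY1 and RPL29 the BI pigs lie between AL44 and AL46.

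Across the 1513 genes tested, 0 had an adjusted p under 0.05 in limma (0%) and 112 an unadjusted p under 0.05 (7.4%). On the recovered reads, edgeR and limma-voom also called 0 (0%) and DESeq2 called 16 (1.06%). The call was 1 of 3807 genes (0.0263%) where limma took genes whose counts summed to 50 or more in either breed, and 40 of 14681 (0.272%) with no minimum.

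ACY1 had the higher count in its pair. Its mean normalised count of 10595 ranked 26th among 14681 genes with a read. The means of the 49 paired ribosomal protein genes, RPL29 included, summed to 3864, with a median of 32.6. Whether reads from RPL29 were counted on ACY1 was not tested, so the values below compare counts and not amounts of RNA. Per kb of RefSeq exon, ACY1 had a mean normalised count of 4605 and RPL29 of 127, a ratio of 36.2. KLB had 15.5 per kb, the lowest of the 3. In reads, AL pigs had 97.3 to 157 ACY1 reads per RPL29 read (median 139) and BI pigs 102 to 141 (median 125). The ranges overlapped, with means of 130 ± 23.0 and 124 ± 14.9 (SD, n = 5 each). ACY1 took 98.98% of the reads of the pair in AL46 (95% Wilson interval 98.81 to 99.13) and 99.37% in AL44 (99.18 to 99.51), and the other 8 pigs lay between. These intervals cover counting error only. The pigs at the ends of this range were those with the most and the fewest RPL29 reads in AL.

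Whether KLB and ACY1 vary together was examined between pigs. Because KLB splits the pigs into 2 clusters by breed, the breed mean was taken off each log2 value, and pigs were permuted within breeds. For KLB and ACY1, Pearson's r was 0.06 (exact permutation p = 0.887, Benjamini-Hochberg q = 0.887) and Spearman's rho 0.20 (p = 0.640). Without BI25 and BI42, the pigs farthest from the median of KLB, r was 0.27 (exact permutation p = 0.543). No joint variation of KLB and ACY1 was detectable in these 10 pigs. In AL, AL44 and AL49 were the lowest pigs for both genes, but KLB spanned only 123.7 to 138.8. Its coefficient of variation there was below that of counting error (4.66% against 8.67%), so the order of the AL pigs in KLB cannot be told from counting error. In BI the low pigs for KLB, BI25 and BI42, had ACY1 counts of 10536 and 10631, within the range of the other BI pigs.

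KLB and RPL29 gave an r of -0.10 (exact permutation p = 0.671, q = 0.887) and a rho of -0.20 (p = 0.640). Without BI25 and BI42 the r was 0.19 (exact permutation p = 0.604).

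ACY1 and RPL29 rose and fell together between pigs, over both breeds, with an r of 0.83 (permutation p = 0.00240, q = 0.00720) and a rho of 0.88 (permutation p = 0.00153, q = 0.00459). All 3 pairs that could be formed were tested two-sided as 1 family. With the breed mean taken off, r was 0.84 (exact permutation p = 0.00708). The relation by r rested on AL44 and AL46, without which it was 0.56 (exact permutation p = 0.133) and rho 0.76 (exact permutation p = 0.0368, q = 0.11), so that neither passed after adjustment. Without AL44 alone r was 0.77 (permutation q = 0.0407), and without AL46 alone it was 0.73 (permutation q = 0.0678).

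Depth was compared with both genes. ACY1 had an r of 0.48 with the reads counted on genes (permutation p = 0.158, rho 0.35) and of 0.27 with the share of reads on the 10 highest genes (permutation p = 0.459). For RPL29 these were 0.25 (permutation p = 0.484, rho 0.22) and 0.21 (permutation p = 0.542). The lowest q in this family was 0.542. In AL44 the 10 highest genes took 48.5% of reads, against 54.0% to 60.3% in the other pigs. With library totals in place of size factors, the r of ACY1 and RPL29 was 0.81 (permutation q = 0.0171) and rho was 0.73 (permutation q = 0.0598), which missed the threshold.

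**Figure D3:**
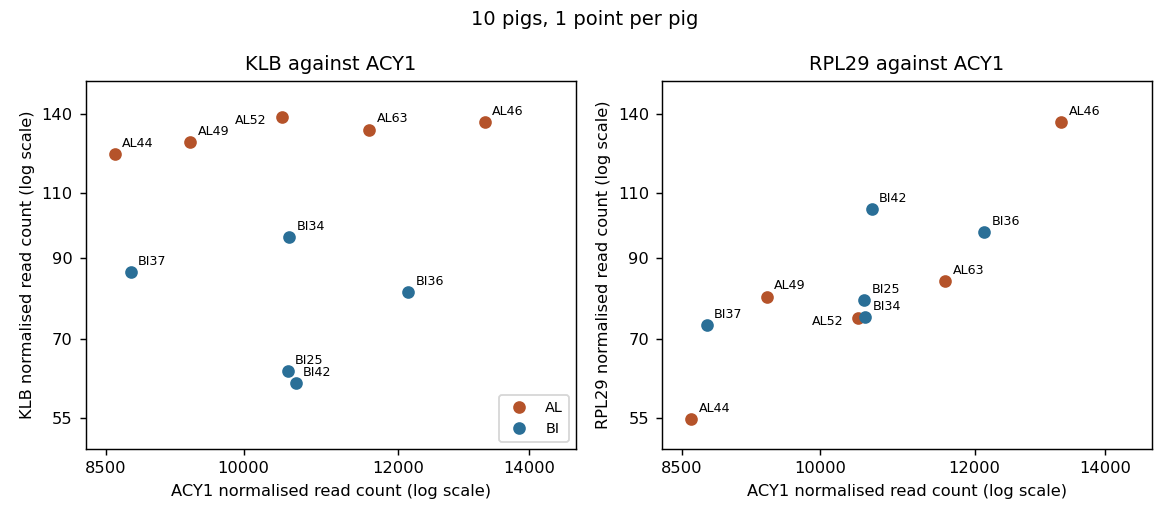
KLB (left) and RPL29 (right) against ACY1 in 10 pigs, as normalised read counts on log axes, with AL pigs in orange and BI pigs in blue. KLB shows 2 levels, by breed, at any ACY1 count, while RPL29 runs from AL44 at the lower left to AL46 at the upper right, the pigs on which the r of 0.83 rests.

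The genes most like each member were ranked by r over the 10 pigs among 1512 other tested genes, as a description. These rankings were not repeated without AL44 or AL46, the lowest and highest pigs for ACY1 and RPL29. For ACY1 these were ENSSSCG00000036335 (r = 0.96), ENSSSCG00000003930 (0.96), FLT3LG (0.93), which encodes a cytokine ligand, LONP1 (0.92), a mitochondrial protease, and RPS7 (0.90), a protein of the small ribosomal subunit. The same 5 genes led with the breed mean taken off. RPL29 came 19th in this order, among 30 genes with an r of at least 0.8, and the median r of all genes with ACY1 was -0.10.

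For RPL29 the most alike were ENSSSCG00000014569 (r = 0.90), RPS3 (0.89), another small subunit protein, PDLIM3 (0.89), a protein of the muscle Z-disc, HSPB1 (0.89), a small heat shock protein, and ENSSSCG00000003930 (0.87). The last of these is the 1 gene shared with the list of ACY1. ACY1 came 10th for RPL29. With the breed mean taken off, 1 of these 5 genes stayed among the first 5.

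For KLB the most alike were ENSSSCG00000038756 (r = 0.87), ENSSSCG00000017356 (0.87), GRTP1 (0.86), GUCD1 (0.85) and PLP2 (0.84). Each had the higher mean in AL, for example 101 against 66.4 for PLP2 and 197 against 161 for GRTP1. With the breed mean taken off, 0 of these 5 remained among the first 5, and YARS1, a tyrosyl-tRNA synthetase (0.94), EIF3B, a subunit of a translation initiation factor (0.89), and ZNF526 (0.87) led instead, a ranking added after the data had been seen. ACY1 came 636th for KLB over both breeds and 769th with the breed mean taken off.

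The genes around each pair were at low counts. LIAS, which encodes lipoyl synthase and starts 89 bp beyond RPL9, had 7 reads over the 10 pigs. RFC1, a replication factor subunit 17502 bp from the KLB pair, had a mean normalised count of 4.19, and UGDH, which makes UDP-glucuronate, 0.766. Beside ACY1, ABHD14A at 2166 bp had 3.58, PCBP4 8.23, PARP3 4.54 and RRP9 1.68, against 10595 for ACY1 itself. GPR62 and ABHD14B were not paired with an identifier. Each of these 7 measured neighbours had at most 18 reads in any pig, and the smallest normalised count that 3 reads stand for was 2.47 to 3.39, depending on the pig.

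Other ribosomal protein genes with a gene on the opposite strand were set beside the pairs. Of the 84 cytosolic ribosomal protein genes listed, 81 had a position and 14 overlapped a gene of the opposite strand, giving 15 pairs. The pairs of KLB and ACY1 are among these. Both genes were measured in 7 pairs, ACY1 with RPL29 included, and in 5 of 7 the opposite gene had the higher count per kb of exon. NDUFB10 and RPS2 each recur among the 7 pairs, which are therefore not independent. Overlap at the 3′ ends, as in KLB and ACY1, was also found for RPS2 with NDUFB10 and for RPS25 with CCDC84, the latter gene not paired. NDUFB10, a subunit of respiratory complex I, had 85467 per kb and RPS2 87.1, with 2 shared exon bases. MRPL49, a mitochondrial ribosomal protein gene, had 1816 per kb against 502 for FAU, with 556 shared exon bases, and VPS52 351 against 56.1 for RPS18, with 25. The reverse order was seen for RPL7A with MED22 (627 and 0.225 per kb, 198 shared bases) and for RPS2 with RNF151 (87.1 and 2.89, 864 shared bases). RPL3L, the muscle form of RPL3, had 33.3 per kb across from NDUFB10 and shared 0 exon bases with it. Where only the opposite gene was measured, it was low. LRSAM1, across from RPL12, had 0.128 per kb, TRIM66, across from RPL27A, 0.725 and NDST1, across from RPS14, 3.44, while KLB, across from RPL9, had 15.5. RPS28, with 209 per kb, faced NDUFA7, which was not paired, and for RPL39 neither gene was.

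**Figure D4:**
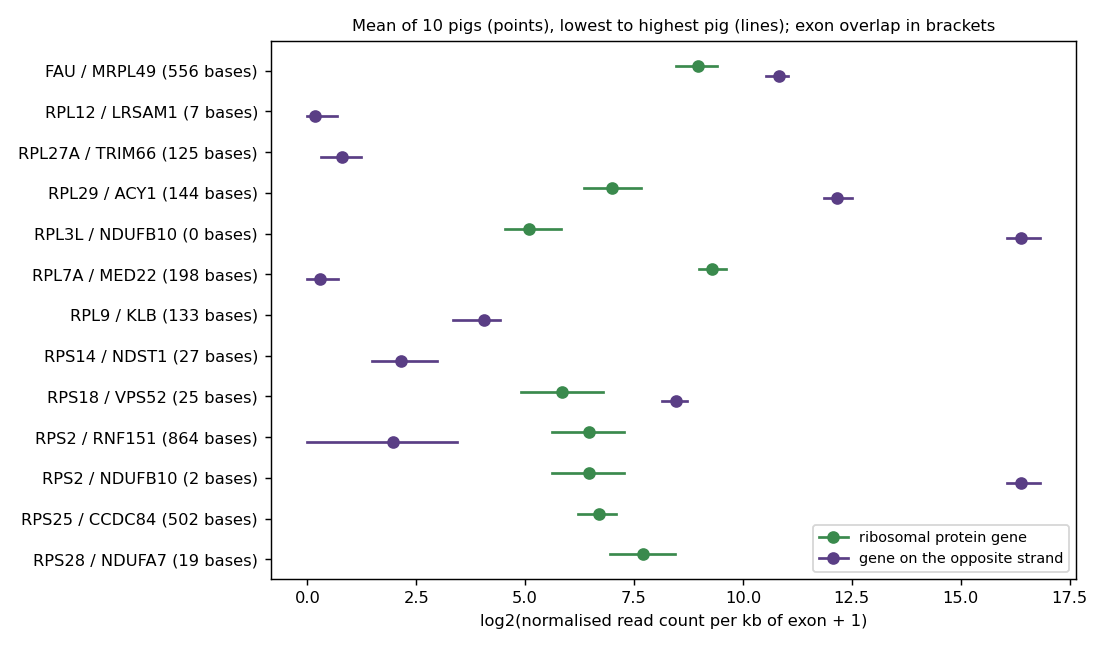
Ribosomal protein genes (green) and the genes overlapping them on the opposite strand (purple), as log2(normalised read count per kb of exon + 1), with the mean of 10 pigs as points and the lowest to highest pig as lines. The shared exon bases stand in brackets, and pairs not reported are left out. ACY1 lies far above RPL29 with 144 shared bases, while MED22 lies far below RPL7A with 198.

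The relation between pigs was computed in the other 3 pairs with both genes at a mean of at least 50, a choice made after the data had been seen. It was 0.85 for RPS2 and NDUFB10 (permutation p = 0.00320, q = 0.00960, rho 0.79), which fell to 0.46 without the pigs farthest from the median (exact permutation p = 0.243). For RPL3L and NDUFB10 the r was 0.59 (permutation p = 0.0703, q = 0.105) and rho 0.76 (permutation p = 0.0148, q = 0.0222), so that the pair passed by rank alone, and without those pigs r was 0.74 (exact permutation p = 0.0344). This pair shares 0 exon bases. FAU and MRPL49, with the longest exon overlap of the 3, had an r of -0.42 (permutation p = 0.224, q = 0.224, rho -0.45) and without those pigs -0.37.

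Among the FGF and klotho genes, ligands, receptors and the signalling chain below them were low throughout. Of 47 listed genes 43 were paired and 41 had a read, FGFR2 and FGF19 being at 0. Besides KLB only 1 gene of the list reached the minimum for testing, and 0 passed in limma, with 0 at an unadjusted p under 0.05. The shares over all genes tested were 0% and 7.4%. Of the ligands, FGF21 had 18.8 ± 16.8 in AL and 27.5 ± 3.93 in BI. The AL value rested on AL44, which had 48.1, whereas the remaining AL pigs had 7.12 to 16.7. BI ran from 21.05 to 31.7, so the ranges of the breeds overlapped over all pigs. How many genes part the breeds once 1 pig is set aside was not counted. Without AL44 the AL mean was 11.5 ± 4.27. FGF21 had 97 reads in AL and 144 in BI and was under the minimum for testing, so a breed difference in it was not tested. FGF2 had a mean of 35.1. The receptors, singled out for their role after their values were seen, had 18 reads in AL and 14 in BI for FGFR1. FGFR3 had 10 and 14, FGFR4 0 and 3, and FGFRL1 26 and 13. All were under the minimum for testing, so differences in them were not tested and could not be judged at this depth. MAP2K2, HRAS and MAP2K1 of the signalling chain had mean normalised counts of 43.7, 38.6 and 23.3. KL, which encodes α-klotho, was not paired.

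**Figure D5:**
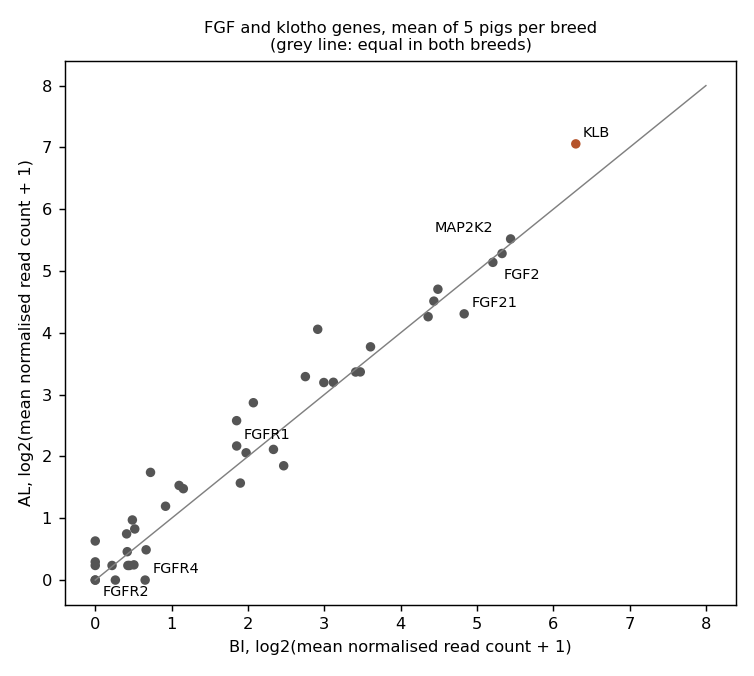
FGF and klotho genes as log2(mean normalised read count + 1) in AL (vertical) against BI (horizontal), the mean of 5 pigs per breed for the genes shown. KLB (orange) lies above the line of equal values, and FGFR1, FGFR2 and FGFR4 are near the lower left corner.

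Of 30 genes for acylases and N-acetylation 25 were paired and 24 had a read, NAA11 being at 0. Besides ACY1, 2 were tested and 0 passed in limma, with 0 at an unadjusted p under 0.05. Over all genes tested these shares were 0% and 7.4%. NAGS, which makes N-acetylglutamate, had 211 ± 47.9 in AL and 197 ± 28.7 in BI (log2 fold change 0.08, limma adjusted p = 0.938). NAA20, a catalytic subunit of an N-terminal acetyltransferase, had 126 ± 32.3 and 130 ± 23.3 (log2 fold change -0.06, limma adjusted p = 0.954). Their median log2 fold change was 0.01, beside -0.05 over all genes tested.

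Of the 84 cytosolic ribosomal protein genes 49 were paired, and 16 besides RPL29 were tested. In limma 0 passed and 0 had an unadjusted p under 0.05, beside 0% and 7.4% of all genes tested. In 9 the estimate was positive and in 7 negative, with a median log2 fold change of 0.04, beside -0.05 over all genes tested. The highest counts were those of RPL7A (743), RPS2 (514), FAU (405), RPL10 (263), RPL5 (184) and RPS25 (165). RPL5, which had the lowest adjusted p, had 159 ± 32.4 in AL and 209 ± 48.5 in BI (log2 fold change -0.38, limma adjusted p = 0.699).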

How the data were processed

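Longissimus lumborum of 5 AL and 5 BI pigs was compared, with breeds taken from the sample labels. According to their notes, the authors used Trim Galore 0.5.0 for trimming, HISAT2 2.1.0 for alignment, with Sscrofa11.1 and Ensembl release 94 as reference, then SAMtools 1.9 and HTSeq 0.11.1 for gene counts. Each pig has a column of signal, deposited as gene counts over a size factor from DESeq2. Dividing by the smallest value above 0 gave whole reads for 100% of values (within 0.001). The deposited log2 fold changes, p-values, adjusted p-values and, as scores, standard errors and Wald statistics of the authors' own comparison were not used.

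Testing was limited to means of 50 or more in both breeds (1513 of 14681 genes with a read), in limma 3.58.1 (intensity trend) on log2(value + 1), with Benjamini-Hochberg adjustment. DESeq2 1.42.0, edgeR 4.0.16 and limma-voom were run on the recovered reads. All were tested on simulated data. Correlations used log2 values and 100000 permutations, or every permutation within breeds. For the pairs with KLB, the pooled correlation planned as the main value was replaced by that with the breed mean off, because KLB separates the breeds. Of 6 planned pairs 3 were computed, since RPL9 was not paired with an identifier. A share of KLB in its pair was not computed for the same reason. Positions and sequences come from RefSeq annotation release 106 of Sscrofa11.1. Counts per kb divide the deposited counts, made for Ensembl genes, by the exon bases of all RefSeq transcripts of a gene together (6747 for KLB). They are therefore approximate, and the overlap of the Ensembl gene models was not examined. Of the deposited identifiers 14857 were paired with a symbol.

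Genes named are the members, the 5 tested genes with the highest r to each, genes within 50 kb, the ribosomal protein genes with an opposite-strand overlap, and up to 6 of the highest in each list (FGF and klotho, acylase, ribosomal protein). Members are left out of the list counts. Some genes that the rule names are not reported here. Members and lists were chosen with earlier results of these data known. The 2298045 to 3343194 reads counted on genes per pig, far fewer than the reads sequenced and aligned, limit precision for low genes. Why so few were counted is not given in the sources used here. The labels give no batch.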

Additional observations from a re-analysis of the deposited data

Results flagged for a closer look

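Of 26 groups of 5 pigs examined for a pig far from the others, 1 was picked out, and chance picks about 1 in 20. RPL7A, which overlaps MED22 on the opposite strand, had a normalised count of 929.9 in BI25 against 662 to 727 in the other BI pigs (ratio of gap to range 0.76, limit 0.71).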

How the results depend on the processing

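KLB kept its direction under the 18 alternatives (0.70 to 0.86 with 1 pig left out, 0.72 to 0.83 otherwise), and ACY1 ran from -0.07 to 0.08 with 1 pig left out. The log2 fold change of RPL29 was 0.0023 with DESeq2 and 0.048 with edgeR, and -0.23 to 0.10 with 1 pig left out. Genes called numbered 40 with no minimum, 1 in the wider gene set, 16 with DESeq2, and 0 to 1 with 1 pig left out (1 without AL44, 1 without BI37). The r of KLB and ACY1 was -0.21 with library size taken without the 10 highest genes and -0.12 with library totals in place of size factors, and -0.052 to 0.27 with 1 pig left out. That of KLB and RPL29 was 0.19 without the pigs farthest from the median and -0.28 to 0.12 with 1 pig left out. That of ACY1 and RPL29 was 0.56 without AL44 and AL46 and 0.73 to 0.87 with 1 pig left out, missing the threshold without AL46, and its rho missed it with library totals (0.73). Beyond the smaller sets of pigs or other sets of genes, the cause was not tested. Calls in the 3 gene lists stayed at 0 throughout. No paired analysis was possible because the labels number no replicates across breeds.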
